A study of Homo sapiens with 12 samples.

Results

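The 10 genes described here belong to TGF-beta and BMP signalling: the ligand genes TGFB1, TGFB2, INHBA and BMP2, the receptor genes TGFBR1 and TGFBR2, the signal transducer SMAD3, and the inhibitors SMAD7, PMEPA1 and SKIL. They were taken as every probe set (the probes that together measure 1 transcript region) annotated to one of these symbols alone, which gave 30 of the 54675 probe sets of the array. Of these, 20 exceeded their array's median on at least 3 arrays, with at least 1 for each gene. The genes were chosen with group differences on these same 12 arrays known. Their values are therefore a description, given with errors and without p-values.

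The cells were MDA231 (MDA-MB-231), an established triple-negative breast cancer line, and 4 groups of 3 RNA samples were each read on their own single-colour oligonucleotide array. The ETX group carried a scrambled short hairpin RNA and received ETX, read here as etomoxir, an inhibitor of the fatty acid importer CPT1. The shCPT-1 and shCPT-2 groups carried hairpins against CPT1 or CPT2, which act in turn to bring long-chain fatty acids into the mitochondrial matrix. The scramble group carried the scrambled hairpin and received no ETX. The hairpins were delivered by pGIPZ lentivirus, so every group carries a hairpin construct. The sources used here do not give the dose or time of ETX, the CPT1 isoform targeted, or whether a knockdown is 1 hairpin or 1 clone. The labels also do not tell separate cultures from repeat samples of 1 culture within a group, so errors and p-values cover the array-to-array spread alone, and that spread may be technical.

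TGF-beta, activin and BMP ligands are secreted dimers that bring together type I and type II receptor kinases. The type I receptor then phosphorylates SMAD proteins, SMAD2 and SMAD3 after TGF-beta or activin and SMAD1, SMAD5 and SMAD9 after BMP, and these enter the nucleus with SMAD4. Several of the genes switched on in this way, SMAD7, PMEPA1 and SKIL among them, encode inhibitors of the same pathway and form a negative feedback. MDA-MB-231 cells are widely used to study TGF-beta in breast cancer invasion and metastasis.

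PMEPA1 was lower than in scramble in all 3 altered groups, with log2 differences of -1.23 with ETX, -0.72 in shCPT-1 and -1.77 in shCPT-2. SMAD7 and BMP2 were lower in both knockdowns, and neither was lower with ETX. The knockdown differences of BMP2 carry no weight beyond the values, because BMP2 exceeded the array median on no knockdown array. By the brightest probe set of each gene, TGFB2 was highest in shCPT-2, TGFBR1 was highest in shCPT-1, and SMAD3 was lowest with ETX. Other probe sets of these genes did not all show this.

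The labels were checked on the targeted genes. CPT1A, the liver form of CPT1, read (as log2 intensity) 8.11, 8.10 and 8.34 in shCPT-1, against 9.64, 9.84 and 9.86 in scramble (-1.59 ± 0.08 SE, limma adjusted p = 1.97e-08). CPT2 had 6.61, 6.22 and 6.39 in shCPT-2, against 7.46, 7.31 and 7.46 in scramble (-1.001 ± 0.10, limma adjusted p = 5.46e-06). With ETX, which acts on the protein, CPT1A was 1.11 ± 0.08 higher (limma adjusted p = 1.46e-06). In all, 12886 genes were tested, and the median intensity of an array was 74.9 to 77.2 units. VIM, CD44, MSN and AXL, which mesenchymal breast cancer lines express, were above the median on all 12 arrays. Of the markers listed as low or absent in this line, PGR and CDH1 were under the median on all arrays, while ESR1 (log2 6.76 to 7.18), ERBB2 (9.02 to 9.32) and EPCAM (8.65 to 9.16) were above it on all. The leukocyte marker PTPRC, the endothelial marker CDH5 and the fibroblast markers COL1A2, COL3A1 and LUM were under the median on all 12. In each of these classes 1 marker was above it on all 12, CD3E (log2 6.28 to 6.70), PECAM1 (6.76 to 7.51) and COL1A1 (7.96 to 8.31), and DCN was above it on 2. The array scramble 3 stood apart from its group: it correlated with ETX 3 (r = 0.9955 over probe sets) about as closely as with the least similar scramble array (0.9954). The actin control, whose 3′ probe set minus its 5′ one follows RNA integrity and labelling, differed as well, at 1.75 ± 0.06 log2 units with ETX, 1.73 ± 0.23 in shCPT-1 and 1.68 ± 0.23 in shCPT-2, against 2.07 ± 0.27 in scramble (SD, n = 3 each). Their part in the differences from scramble was not tested beyond the values given beside results.

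Among the ligands, TGFB1 encodes the form of TGF-beta most studied in tumours. It had log2 intensities of 9.17, 9.08 and 9.10 with ETX, 9.32, 9.42 and 9.46 in shCPT-1 and 9.25, 9.21 and 9.17 in shCPT-2, against 9.50, 9.39 and 9.31 in scramble. All ETX and all shCPT-2 arrays lay under the lowest scramble array, while shCPT-1 overlapped scramble. The differences from scramble were -0.29 ± 0.06 (SE) with ETX, 0.00 ± 0.06 in shCPT-1 and -0.19 ± 0.06 in shCPT-2, on the log2 scale. Another probe set of TGFB1 was at -0.25 with ETX but at -0.01 in shCPT-2. With the actin control signal as a covariate the differences of TGFB1 were -0.22 with ETX, 0.07 in shCPT-1 and -0.10 in shCPT-2.

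TGFB2, which encodes a TGF-beta that needs betaglycan for strong receptor binding, read 8.70, 8.77 and 8.89 with ETX, 8.69, 8.60 and 8.64 in shCPT-1 and 9.18, 9.08 and 9.17 in shCPT-2, against 8.54, 8.67 and 8.74 in scramble. The shCPT-2 arrays were above all others, 0.49 ± 0.06 (SE) over scramble, and ETX and shCPT-1 each overlapped scramble. The 4 retained probe sets of TGFB2 did not move alike in shCPT-1. The one that stands for the gene was at -0.01 there, 2 others were at -0.54 and -0.31 with no overlap with scramble, and the last was at 0.08. In shCPT-2 the 4 ranged from 0.02 to 0.49, and with ETX from 0.06 to 0.27. A dimmer probe set that did not pass the filter was at -0.81 in shCPT-1 and overlapped scramble in the other groups. With the actin covariate TGFB2 was at 0.07 with ETX, -0.07 in shCPT-1 and 0.41 in shCPT-2.

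INHBA encodes the subunit of activin A. Its retained probe set read 6.19, 6.33 and 6.15 with ETX, 6.15, 6.17 and 6.03 in shCPT-1 and 6.59, 6.86 and 6.63 in shCPT-2, against 6.20, 6.13 and 6.21 in scramble. It exceeded the array median on 4 arrays, 3 of them shCPT-2, and was 0.51 ± 0.07 (SE) higher there than in scramble. A probe set that passed only through the group where it is high had to differ, so that difference carries no weight beyond the values. A dimmer probe set of INHBA, under the median on every array, read 5.70, 5.46 and 5.60 in shCPT-2, against 4.31, 4.26 and 4.02 in scramble. A further dim one, also under the median on every array, overlapped scramble in shCPT-2. It read 5.01, 5.09 and 4.87 there, against 4.80, 4.81 and 4.93 in scramble, a change of 0.14.

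BMP2 encodes a bone morphogenetic protein that signals through SMAD1, SMAD5 and SMAD9. It read 8.14, 8.08 and 8.18 with ETX, 6.06, 6.16 and 6.20 in shCPT-1 and 5.76, 5.76 and 6.02 in shCPT-2, against 7.96, 7.91 and 7.48 in scramble. Every knockdown array was more than 1 log2 unit under the lowest scramble array and under its own array's median, and every ETX array was above the highest scramble array. BMP2 was 3.13-fold lower in shCPT-1 (-1.65 ± 0.11 SE) and 3.82-fold lower in shCPT-2 (-1.93 ± 0.11) than in scramble. These folds rest on a low knockdown signal and are less certain in size. BMP2 passed the filter only through the ETX and scramble arrays, where it is high. Its knockdown differences therefore carry no weight beyond the values. With ETX BMP2 was 0.35 ± 0.11 above scramble, and without scramble 3 that difference was 0.19. The other retained probe set of BMP2 agreed in sign and not in size: it read 7.95, 7.74 and 7.52 with ETX, 5.49, 5.47 and 5.60 in shCPT-1 and 5.52, 5.52 and 5.49 in shCPT-2, against 6, 6.41 and 6.55 in scramble. By that probe set BMP2 differed from scramble by 1.42 with ETX, -0.80 in shCPT-1 and -0.81 in shCPT-2.

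**Figure D1:**
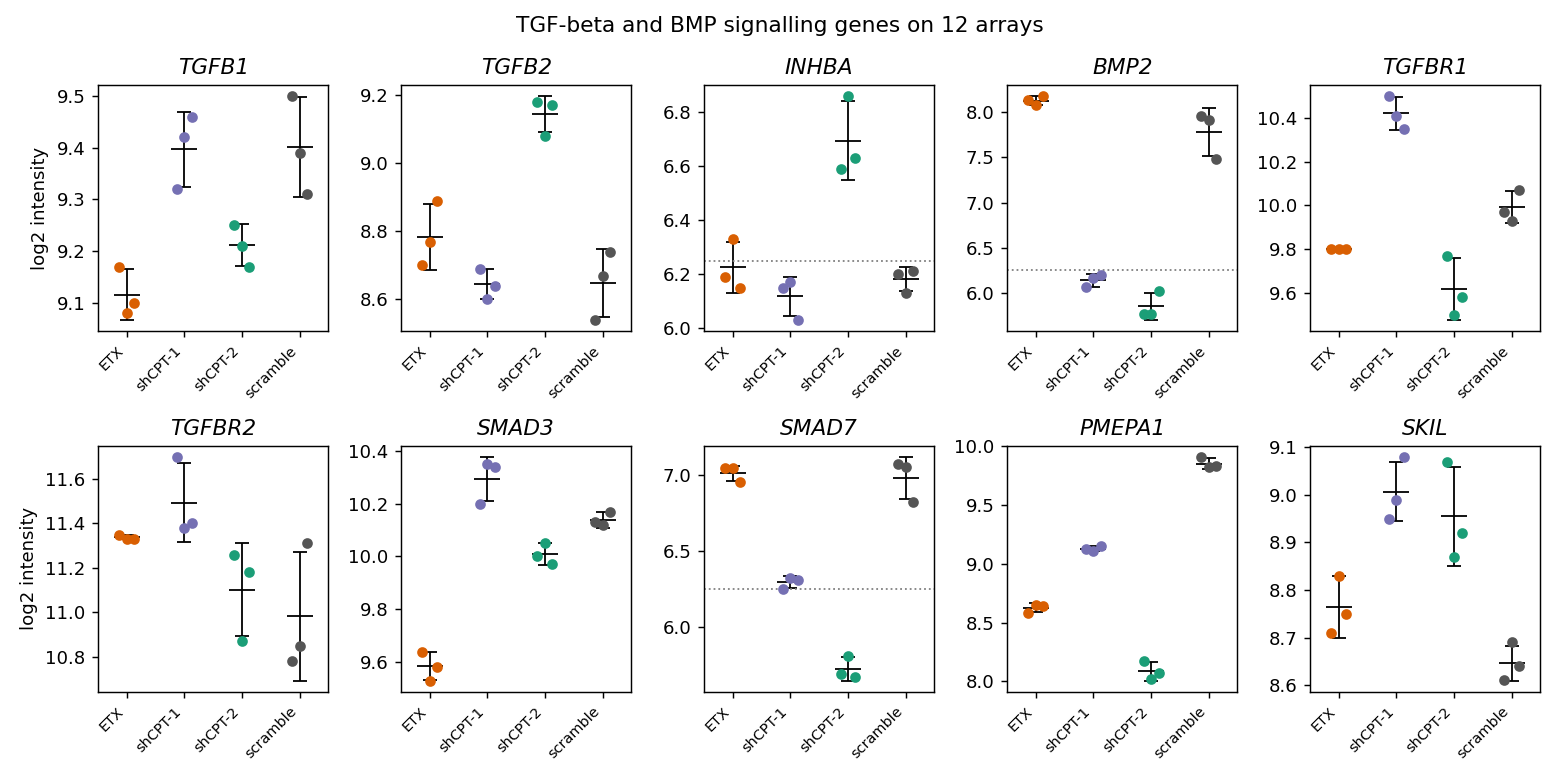
Log2 intensity (vertical axes, each panel on its own range) of the 10 genes by group, 1 point per array, with the mean and SD of 3 arrays as a bar. The dotted line, drawn where values come near it, is the mean of the array medians. PMEPA1 lies at 8.02 to 9.15 in the altered groups, under all scramble arrays (9.82 to 9.91), and BMP2 and SMAD7 are low in both knockdowns.

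The type I receptor TGFBR1, the kinase that phosphorylates SMAD2 and SMAD3, read 9.80 on each of the 3 ETX arrays, 10.50, 10.41 and 10.35 in shCPT-1 and 9.77, 9.50 and 9.58 in shCPT-2, against 9.97, 9.93 and 10.07 in scramble. No 2 neighbouring groups overlapped, in the order shCPT-1, scramble, ETX and shCPT-2. The differences from scramble were -0.19 ± 0.07 (SE) with ETX, 0.43 ± 0.07 in shCPT-1 and -0.37 ± 0.07 in shCPT-2. Its other retained probe set was at -0.69 with ETX and -0.34 in shCPT-2, but at 0.08 in shCPT-1, where it overlapped scramble. The higher level in shCPT-1 therefore rests on 1 of the 2 probe sets. With the actin covariate TGFBR1 was at -0.27 with ETX, 0.35 in shCPT-1 and -0.47 in shCPT-2.

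TGFBR2, the type II receptor that binds TGF-beta first, read 11.35, 11.33 and 11.33 with ETX, 11.70, 11.38 and 11.40 in shCPT-1 and 11.26, 10.87 and 11.18 in shCPT-2, against 10.78, 10.85 and 11.31 in scramble. Scramble 3 lay far above the other 2 scramble arrays and close to the ETX arrays. The differences from scramble were 0.36 ± 0.14 (SE) with ETX, 0.51 ± 0.14 in shCPT-1 and 0.12 ± 0.14 in shCPT-2. Without scramble 3 they were 0.52, 0.68 and 0.29. With the actin control signal as a covariate they were 0.08 ± 0.08, 0.22 ± 0.08 and -0.22 ± 0.08, so the sign in shCPT-2 turned. No direction is drawn for TGFBR2.

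SMAD3, which carries the TGF-beta and activin signal to the nucleus, read 9.64, 9.53 and 9.58 with ETX, 10.20, 10.35 and 10.34 in shCPT-1 and 10, 10.05 and 9.97 in shCPT-2, against 10.13, 10.12 and 10.17 in scramble. The ETX arrays were under all others, at -0.55 ± 0.05 (SE) against scramble, the shCPT-1 arrays were above all others, at 0.16 ± 0.05, and shCPT-2 lay under scramble, at -0.13 ± 0.05. The other 2 retained probe sets of SMAD3 did not show the ETX difference, at -0.06 and 0.10, and in shCPT-2 they were at 0.14 and 0.17, the opposite sign. In shCPT-1 the 3 probe sets had 1 sign, from 0.16 to 0.28. The ETX value of SMAD3 is thus that of 1 probe set, the brightest, and the mean of the 3 was -0.17 with ETX and 0.06 in shCPT-2.

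SMAD7, an inhibitory SMAD that blocks type I receptors and recruits ubiquitin ligases to them, was measured by 1 probe set. It read 7.04, 7.04 and 6.95 with ETX, 6.25, 6.32 and 6.31 in shCPT-1 and 5.69, 5.81 and 5.67 in shCPT-2, against 7.07, 7.05 and 6.82 in scramble. The ETX arrays overlapped scramble (0.03 ± 0.07 SE). The shCPT-1 arrays were all lower (-0.69 ± 0.07), and the shCPT-2 arrays lower again (-1.25 ± 0.07, 2.39-fold under scramble) and under their array medians. Between the knockdowns SMAD7 was lower in shCPT-2 (-0.57 ± 0.07 against shCPT-1), with no overlap.

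PMEPA1 encodes a membrane protein that holds SMAD2 and SMAD3 away from the receptor and is itself switched on by TGF-beta. It read 8.58, 8.65 and 8.64 with ETX, 9.13, 9.11 and 9.15 in shCPT-1 and 8.17, 8.02 and 8.07 in shCPT-2, against 9.91, 9.82 and 9.83 in scramble. The 4 groups were fully separated, in the order scramble, shCPT-1, ETX and shCPT-2, with steps of 0.72, 0.50 and 0.54. PMEPA1 was 2.34-fold lower with ETX (-1.23 ± 0.05 SE), 1.65-fold lower in shCPT-1 (-0.72 ± 0.05) and 3.40-fold lower in shCPT-2 (-1.77 ± 0.05) than in scramble. Its 3 probe sets had 1 sign in every comparison and kept this order of the group means, although ETX and shCPT-1 overlapped on 1 of them. The other 2 gave larger differences: -1.31 and -1.47 with ETX, -0.99 and -1.30 in shCPT-1, and -1.89 and -2.62 in shCPT-2. The last of these read 6.05, 6.08 and 6.30 in shCPT-2, around the array medians, against 8.81, 8.83 and 8.65 in scramble. The actin covariate and the removal of scramble 3 left the differences of PMEPA1 where they were, at -1.22, -0.72 and -1.76 with the covariate and at -1.24, -0.735 and -1.78 without that array.

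SKIL encodes SnoN, a nuclear co-repressor of SMAD3 and SMAD4. It read 8.71, 8.83 and 8.75 with ETX, 8.95, 8.99 and 9.08 in shCPT-1 and 9.07, 8.87 and 8.92 in shCPT-2, against 8.61, 8.69 and 8.64 in scramble. Each altered group lay above scramble, by 0.12 ± 0.06 (SE) with ETX, 0.36 ± 0.06 in shCPT-1 and 0.31 ± 0.06 in shCPT-2, and the knockdowns overlapped each other. Of the 3 inhibitors, SKIL was thus higher in the knockdowns, where SMAD7 and PMEPA1 were lower. The other 4 probe sets of SKIL did not pass the filter, and 2 of them lay on the opposite side of scramble without overlap, one at -0.28 with ETX and -0.24 in shCPT-2 and one at -0.20 with ETX and -0.16 in shCPT-1. The higher level of SKIL therefore rests on 1 probe set, the brightest.

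**Figure D2:**
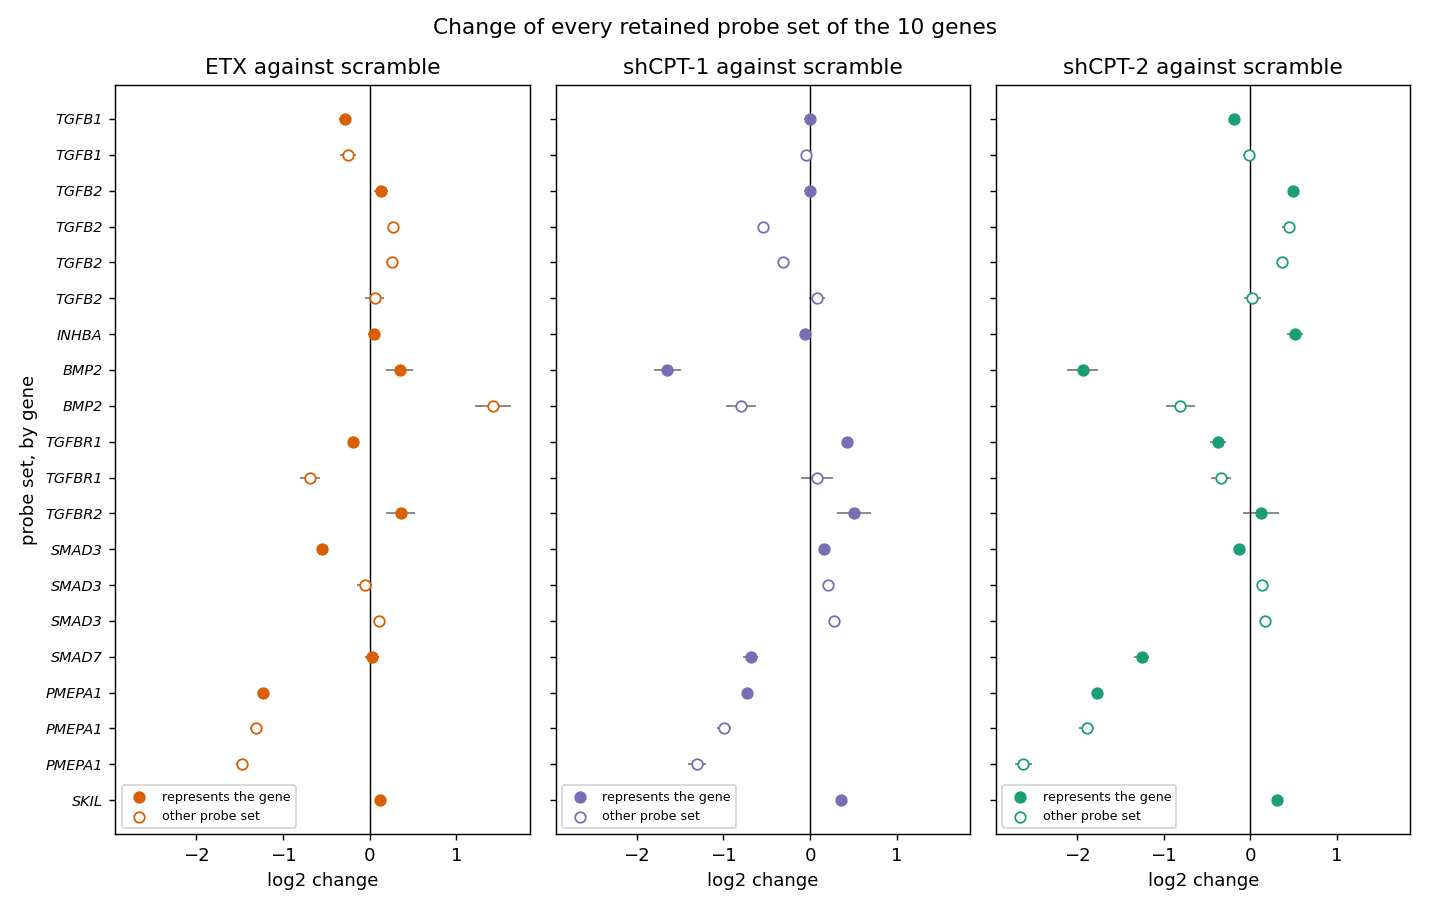
Log2 change against scramble (horizontal axes) of the 20 retained probe sets of the 10 genes, grouped by gene, for ETX, shCPT-1 and shCPT-2. Filled points stand for the gene, open points are its other probe sets, and lines are the standard error from the SDs of 3 arrays per group. The 3 probe sets of PMEPA1 lie left of 0 in every panel (-2.62 to -0.72), while those of SMAD3 and TGFB2 straddle 0 in some.

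RefSeq promoter windows (GRCh38.p14, 250 bases before to 50 after each listed start) were found for 9 of the 10 genes, 26 windows in all. They were searched on both strands for GTCTAGAC, the palindromic SMAD box, and for CAGAC, a shorter SMAD element, which the palindrome does not contain. No window of the 9 genes held the palindrome, which 0.202% of all 35116 windows of that length hold. At least 1 CAGAC was in a window of 7 of the 9 genes, and 45.3% of all windows, or those of 50% of genes, hold one, so its presence does not mark these promoters. The windows with the most CAGAC matches are shown for PMEPA1 and SMAD7, the feedback inhibitors that were lowest in shCPT-2. That of TGFB2, which by its brightest probe set was highest there, is shown too. Each is written 5′ to 3′ on its gene's strand, with CAGAC or its reverse complement GTCTG in capitals, and holds 2 matches. Those of PMEPA1 lie 1 base apart in opposite directions, close to the listed start.
PMEPA1, chr20:57709966-57710265, minus strand: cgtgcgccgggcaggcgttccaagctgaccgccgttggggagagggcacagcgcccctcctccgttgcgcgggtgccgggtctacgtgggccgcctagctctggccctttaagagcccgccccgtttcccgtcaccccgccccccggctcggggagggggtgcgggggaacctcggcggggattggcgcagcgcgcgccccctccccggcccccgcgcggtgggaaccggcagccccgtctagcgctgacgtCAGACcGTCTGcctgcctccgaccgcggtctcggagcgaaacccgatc
SMAD7, chr18:48950916-48951215, minus strand: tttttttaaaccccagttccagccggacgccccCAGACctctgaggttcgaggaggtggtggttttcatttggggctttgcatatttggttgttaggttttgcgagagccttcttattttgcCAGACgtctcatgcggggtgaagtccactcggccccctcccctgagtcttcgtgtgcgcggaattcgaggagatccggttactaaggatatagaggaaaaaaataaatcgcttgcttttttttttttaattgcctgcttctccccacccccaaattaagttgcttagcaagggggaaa
TGFB2, chr1:218345086-218345385, plus strand: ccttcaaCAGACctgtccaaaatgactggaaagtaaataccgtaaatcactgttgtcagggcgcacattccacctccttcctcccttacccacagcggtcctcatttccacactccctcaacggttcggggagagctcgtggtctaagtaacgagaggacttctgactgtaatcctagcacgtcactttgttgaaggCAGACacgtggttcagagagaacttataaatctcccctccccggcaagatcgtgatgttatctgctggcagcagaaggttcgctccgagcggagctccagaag
A match is a description of the sequence and not a bound site.

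Over the 10 genes, the 3 arrays of a group did not overlap those of scramble for 7 genes with ETX, against 49.5% of all tested genes, for 7 in shCPT-1, against 51.1%, and for 9 in shCPT-2, against 52.4%. At a limma adjusted p under 0.05, 5 were called with ETX (41.3% of all tested genes), 7 in shCPT-1 (41.1%) and 8 in shCPT-2 (46.1%). These counts are not evidence, because the genes were chosen on the same arrays. INHBA also passed the filter mainly, and BMP2 only, through groups where it is high. The median log2 change of the 10 was 0.04 with ETX, 0.00 in shCPT-1 and -0.16 in shCPT-2, against -0.01, 0.01 and 0.00 over all tested genes. The 3 comparisons share the scramble arrays. Between the altered groups, BMP2 was lower in shCPT-1 (-1.99 ± 0.11 SE) and in shCPT-2 (-2.28 ± 0.11) than with ETX. Because of how BMP2 passed the filter, that carries no weight beyond the values. PMEPA1 was higher in shCPT-1 (0.50 ± 0.05) and lower in shCPT-2 (-0.54 ± 0.05) than with ETX. SMAD3, by its brightest probe set, was higher in both knockdowns than with ETX (0.71 ± 0.05 and 0.43 ± 0.05). Its other retained probe sets were at 0.26 and 0.18 in shCPT-1, and at 0.19 and 0.07 in shCPT-2, where both overlapped ETX. In shCPT-2, TGFBR1 and PMEPA1 were lower than in shCPT-1 (-0.80 ± 0.07 and -1.04 ± 0.05). TGFB2 was higher in shCPT-2 than in shCPT-1 (0.50 ± 0.06), with its retained probe sets from -0.05 to 0.98. INHBA read 0.58 ± 0.07 higher there too, which carries no weight beyond the value because of how it passed the filter. Over the 12 arrays, which share their groups, SMAD7 and BMP2 had a Pearson r of 0.95, and SMAD7 and PMEPA1 one of 0.64.

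The genes whose pattern was most like that of PMEPA1, by the highest Pearson r of log2 intensity over the 12 arrays among 12886 genes, were CARD10 (r = 0.978), LFNG (0.976), PRAG1 (0.975), UCN2 (0.970) and HMGB3 (0.968). LFNG encodes a glycosyltransferase that modifies Notch, and HMGB3 a chromatin protein. Each of the 5 had its highest group mean in scramble and its lowest in shCPT-2, as PMEPA1 did. HMGB3 averaged 10.29 with ETX, 11.03 in shCPT-1 and 9.94 in shCPT-2, against 11.33 in scramble. Most like BMP2 were IL31RA (0.995), ABI3BP (0.988), TSPAN6 (0.988), CPEB2 (0.988) and GNG11 (0.987). GNG11, a G protein gamma subunit, averaged 11.30 with ETX, 10.29 in shCPT-1 and 10.22 in shCPT-2, against 11.07 in scramble. The arrays of a group are alike in most genes, so such an r describes the order of 4 group means and little else.

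**Figure D3:**
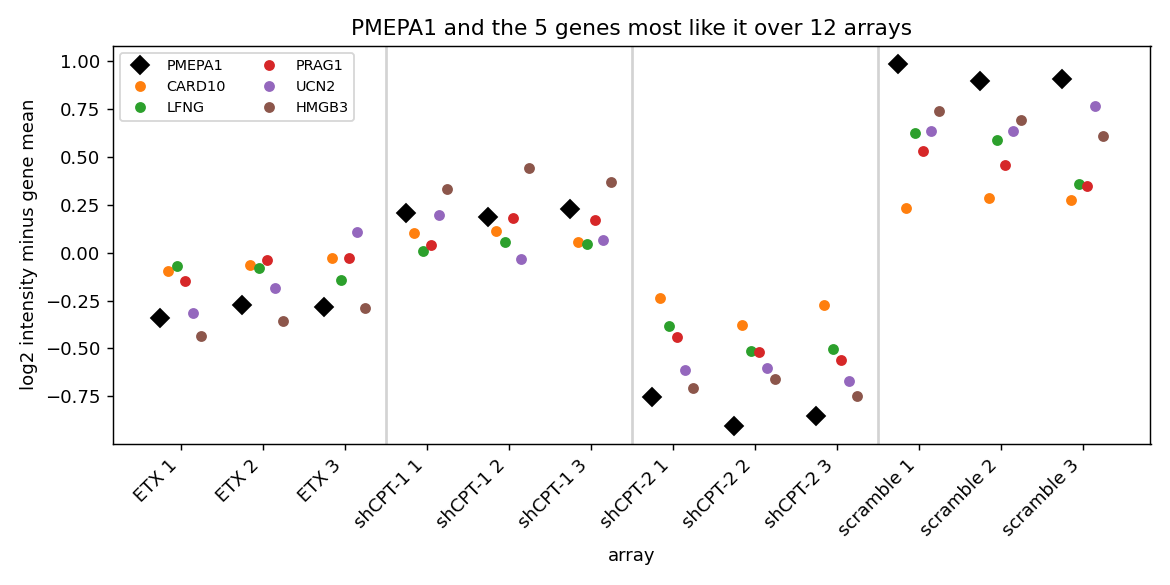
Log2 intensity minus the gene's mean (vertical axis) of PMEPA1 (diamonds) and the 5 genes most like it (circles), by array (horizontal axis). All 6 lie highest on the scramble arrays and lowest on the shCPT-2 arrays, and PMEPA1 has the widest range of them.

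To see whether the rest of the pathway moved, 109 other genes in 7 roles were read, and 75 of them had a tested value. They were written down from general knowledge, but with earlier results of these data known, so they are not an independent check. Of these 75, 69 were above the median on all 12 arrays. With ETX 20 of the 75 rose (26.7%, against 21.9% of all tested genes) and 17 fell (22.7%, against 19.4%). In shCPT-1 20 rose (26.7%, against 23.1%) and 15 fell (20%, against 18.0%), and in shCPT-2 20 rose (26.7%, against 25.6%) and 18 fell (24%, against 20.5%), all by limma with Benjamini-Hochberg adjusted p under 0.05. The shares lay close to those of all genes, and the median changes of the 75 were -0.01, 0.01 and -0.01. Without ETX 2, 11 fell with ETX in place of 17, and with the actin covariate 11 did as well. Over single left-out arrays, 4021 to 5575 of all tested genes were called with ETX, against 5319 with every array. The drop to 11 is therefore not read as particular to the pathway.

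Of 13 other ligand genes, 2 rose and 3 fell with ETX (all tested genes: 21.9% and 19.4%). In shCPT-1 2 rose and 2 fell (23.1% and 18.0%), and in shCPT-2 3 rose and 2 fell (25.6% and 20.5%). INHBB, the subunit of activin B, fell in the knockdowns: it read 8.24, 8.16 and 8.24 in shCPT-1 and 8.09, 7.95 and 7.96 in shCPT-2, against 9.06, 9.30 and 9.29 in scramble. All knockdown arrays were under all scramble arrays (-1.003 ± 0.07 SE, limma adjusted p = 2.69e-07, and -1.22 ± 0.07, adjusted p = 3.34e-08). With ETX its change was -0.15 ± 0.07 (limma adjusted p = 0.0819). INHBA read higher in shCPT-2, but its probe set passed the filter mainly through that group, so no contrast is drawn between the subunits. BMP4 fell by 0.33 with ETX, 0.19 in shCPT-1 and 0.37 in shCPT-2 (limma adjusted p = 0.000428, 0.0115 and 8.42e-05), and the shCPT-1 call ended without scramble 1 (adjusted p = 0.0532) and with the actin covariate (0.0688). GDF15, a divergent member of the family known as a stress cytokine, read higher with ETX, in shCPT-1 and in shCPT-2 (0.86, 1.15 and 0.66). It exceeded the array median on 8 arrays, none of them scramble, so it passed the filter only through groups where it is high. Those differences therefore carry no weight beyond the values, and their sizes are uncertain. GDF15 is among the ligand genes counted as risen in each group. GDF2, a BMP of liver origin, fell by 0.35 with ETX (limma adjusted p = 0.0206), a call that ended without scramble 3 or ETX 2 (adjusted p up to 0.0905).

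Of 9 other receptor genes, 3 rose and 3 fell with ETX (all tested genes: 21.9% and 19.4%). In shCPT-1 2 rose and 1 fell (23.1% and 18.0%), and in shCPT-2 2 rose and 3 fell (25.6% and 20.5%). TGFBR3 is betaglycan, the co-receptor that presents TGF-beta 2. It read 9.50, 9.54 and 9.48 with ETX, 8.98, 8.97 and 8.96 in shCPT-1 and 9.07, 9.03 and 9.14 in shCPT-2, against 9.84, 9.90 and 9.89 in scramble. It fell in every altered group, by 0.37 ± 0.04 (SE) with ETX, 0.91 ± 0.04 in shCPT-1 and 0.80 ± 0.04 in shCPT-2 (limma adjusted p = 5.3e-05, 1.22e-08 and 2.67e-08). ACVR1, a type I receptor for BMPs, rose by 0.58, 0.38 and 0.38 (limma adjusted p = 8.64e-05, 0.00113 and 0.000807). ENG, endoglin, rose by 0.33 in shCPT-1 and 0.43 in shCPT-2 (limma adjusted p = 0.000255 and 2.1e-05) and fell by 0.17 with ETX (adjusted p = 0.0156). That ETX call of ENG ended without scramble 1 or ETX 2 (adjusted p up to 0.0651), with the actin covariate (0.0672) and with the mean of its probe sets (0.352). BMPR2, a type II receptor for BMPs, was 0.23 higher with ETX (limma adjusted p = 0.00757), a call that the mean of its probe sets did not give (adjusted p = 0.927), and it fell by 0.22 in shCPT-2 (adjusted p = 0.00752).

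Of the 6 other SMAD genes, 2 rose and 1 fell with ETX (all tested genes: 21.9% and 19.4%). In shCPT-1 2 rose and 1 fell (23.1% and 18.0%), and in shCPT-2 2 rose and 4 fell (25.6% and 20.5%). SMAD6, the inhibitory SMAD that acts mainly on BMP signals, read 7.44, 7.47 and 7.42 with ETX, 7.37, 7.55 and 7.58 in shCPT-1 and 5.90, 5.65 and 5.98 in shCPT-2, against 7.73, 7.68 and 7.59 in scramble. The shCPT-2 arrays stood far under all others and under their medians, 3.53-fold below scramble (-1.82 ± 0.08 SE, limma adjusted p = 7.02e-09), a fold that is uncertain in size because the shCPT-2 signal was that low. In shCPT-1 the change was -0.16 ± 0.08 (adjusted p = 0.137). With ETX it was -0.22 ± 0.08 (limma adjusted p = 0.0464), which was lost on leaving out scramble 1, scramble 2, any ETX array, shCPT-1 2, shCPT-1 3 or shCPT-2 1 (adjusted p up to 0.144) and with the actin covariate (0.129). SMAD1, a BMP signal carrier, fell by 0.42 in shCPT-1 and 0.43 in shCPT-2 (limma adjusted p = 0.00032 and 0.000215). SMAD9, another BMP signal carrier, read higher in all 3 groups (0.56, 1.23 and 1.02), but it exceeded the array median on 4 arrays only. All 4 were knockdown arrays, so it passed the filter only through groups where it is high. Its knockdown differences therefore carry no weight beyond the values, and all its sizes are uncertain. SMAD9 is among the SMAD genes counted as risen in each group. SMAD4, the shared partner, was 0.66 ± 0.13 higher with ETX (limma adjusted p = 0.00236). Without probe sets prone to cross-hybridisation that call of SMAD4 ended (adjusted p = 0.33). In shCPT-2 SMAD4 was at 0.40 (limma adjusted p = 0.0287), overlapping scramble, and that call ended without scramble 1, scramble 2, shCPT-2 1 or shCPT-2 3 (adjusted p up to 0.123) and with the actin covariate (0.47). SMAD2 was 0.14 higher in shCPT-1 (limma adjusted p = 0.0196), a call that ended without scramble 2 or shCPT-1 3 (adjusted p up to 0.0816), with the actin covariate (0.0523) and on quantile normalization again (0.059). In shCPT-2 SMAD2 was at -0.17 (limma adjusted p = 0.00544), and it turned sign without probe sets prone to cross-hybridisation.

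Of 17 other intracellular regulators, 5 rose and 2 fell with ETX (all tested genes: 21.9% and 19.4%). In shCPT-1 2 rose and 3 fell (23.1% and 18.0%), and in shCPT-2 4 rose and 2 fell (25.6% and 20.5%). The changes were small. LDLRAD4, the paralog of PMEPA1 with the same inhibitory role, did not pass in any comparison (changes of -0.16, -0.11 and -0.12, limma adjusted p = 0.275, 0.478 and 0.431). It was dim, at a group mean of 6.23 with ETX, 6.28 in shCPT-1 and 6.27 in shCPT-2, against 6.39 in scramble. SKI, the relative of SKIL, fell by 0.35 ± 0.06 with ETX (limma adjusted p = 0.000591). In shCPT-1 SKI was at -0.17 (limma adjusted p = 0.0321), a call that ended without shCPT-1 1, shCPT-1 2, scramble 1 or scramble 2 (adjusted p up to 0.129) and with the actin covariate (0.256). The ubiquitin ligase NEDD4L was 0.38 higher with ETX and 0.34 higher in shCPT-2 (limma adjusted p = 0.000163 and 0.000177), calls that ended without probe sets prone to cross-hybridisation (adjusted p = 0.931 and 0.266). In shCPT-1, the ubiquitin ligase WWP1 rose by 0.24, TGIF1, a SMAD co-repressor, was 0.20 higher and FKBP1A, which binds type I receptors, fell by 0.34 (limma adjusted p = 0.00346, 0.00354 and 0.00585). The TGIF1 call did not hold with the mean of its probe sets or without those prone to cross-hybridisation (adjusted p up to 0.21). TGIF1 was also at 0.19 with ETX (limma adjusted p = 0.00464), and FKBP1A at -0.29 in shCPT-2 (adjusted p = 0.0115). The FKBP1A call in shCPT-2 ended without scramble 1 (adjusted p = 0.0543), with the actin covariate (0.195) and with the mean of its probe sets (0.738), and the TGIF1 call with ETX ended without probe sets prone to cross-hybridisation (0.0631). TRIM33 with ETX and TGFBRAP1 in shCPT-2 were called at -0.33 and 0.27, but both turned sign without probe sets of that type. So did the weaker calls of TRIM33 in the knockdowns (-0.23 and -0.18, limma adjusted p = 0.0171 and 0.0492), which also ended without scramble 1, scramble 2 or shCPT-1 1 in shCPT-1 and without 9 of the 12 arrays in shCPT-2 (adjusted p up to 0.0751 and 0.171). TGFBRAP1 was at 0.15 with ETX (limma adjusted p = 0.0243), lost without scramble 1, scramble 2, ETX 1 or ETX 3 (adjusted p up to 0.101). LEMD3, a nuclear envelope protein that binds SMADs, was 0.16 higher in shCPT-2 (limma adjusted p = 0.0101), which ended with the actin covariate (adjusted p = 0.091).

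Of 13 extracellular regulators, 1 rose and 2 fell with ETX (all tested genes: 21.9% and 19.4%). In shCPT-1 5 rose and 5 fell (23.1% and 18.0%), and in shCPT-2 3 rose and 4 fell (25.6% and 20.5%). LTBP1, which stores latent TGF-beta in the matrix, read 10.20, 10.26 and 10.20 in shCPT-1 and 9.57, 9.38 and 9.53 in shCPT-2, against 10.84, 10.83 and 10.75 in scramble. It fell by 0.59 ± 0.06 (SE) and 1.31 ± 0.06 (limma adjusted p = 4.78e-06 and 4.32e-09), and with ETX its change was -0.05 ± 0.06 (adjusted p = 0.511). HTRA1, a protease reported to inhibit TGF-beta family signals, fell by 1.16 ± 0.05 in shCPT-2 and by 0.33 ± 0.05 with ETX (limma adjusted p = 7.32e-09 and 0.000517), and was 0.16 higher in shCPT-1 (adjusted p = 0.0254), a call that ended without scramble 1, scramble 2 or shCPT-1 3 (adjusted p up to 0.111) and with the actin covariate (0.0974). FST, follistatin, which traps activins, rose by 0.69 ± 0.04 in shCPT-2 (limma adjusted p = 1.17e-07). In shCPT-1 FST was at 0.14 (limma adjusted p = 0.0212), lost without scramble 2, shCPT-1 1 or shCPT-1 3 (adjusted p up to 0.0974) and with the actin covariate (0.115). The BMP antagonists NOG (noggin) and CHRDL1 fell by 0.53 ± 0.07 and 0.51 ± 0.05 in shCPT-1 (limma adjusted p = 6.88e-05 and 1.37e-05). In shCPT-2 CHRDL1 fell by 0.47 ± 0.05 (limma adjusted p = 2.26e-05), while NOG was at -0.10 ± 0.07 (adjusted p = 0.252). THBS1, thrombospondin 1, which activates latent TGF-beta, rose by 0.60 ± 0.09 with ETX and fell by 0.35 ± 0.09 in shCPT-1 (limma adjusted p = 0.000336 and 0.00732). LTBP4 fell by 0.22 with ETX (limma adjusted p = 0.0337), which ended without scramble 1, scramble 2 or any ETX array (adjusted p up to 0.146) and with the actin covariate (0.229).

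Of 12 genes known as TGF-beta targets, 6 rose and 3 fell with ETX (all tested genes: 21.9% and 19.4%). In shCPT-1 4 rose and 3 fell (23.1% and 18.0%), and in shCPT-2 4 rose and 3 fell (25.6% and 20.5%). They thus did not move one way in any group. CCN2, the matricellular connective tissue growth factor, read 12.24, 12.29 and 12.10 with ETX, 11.61, 11.21 and 11.14 in shCPT-1 and 11.94, 11.59 and 12.02 in shCPT-2, against 10.90, 11.05 and 11.30 in scramble. It rose by 1.13 ± 0.14 (SE) with ETX and 0.77 ± 0.14 in shCPT-2 (limma adjusted p = 1e-04 and 0.000685). In shCPT-1 its change was 0.24 ± 0.14 (adjusted p = 0.196). IL11, an interleukin linked to bone metastasis, read 9.52, 9.33 and 9.35 in shCPT-2, against 10.81, 10.77 and 10.75 in scramble, 2.59-fold lower (-1.37 ± 0.05, limma adjusted p = 1.98e-09). It also fell by 0.37 with ETX (limma adjusted p = 0.000238) and was at -0.08 in shCPT-1 (adjusted p = 0.222). FN1, fibronectin, fell by 0.47 ± 0.04 and SNAI2, a repressor of epithelial genes, by 0.53 ± 0.05 in shCPT-2 (limma adjusted p = 3.58e-06 and 3.97e-06), and SNAI2 fell by 0.49 in shCPT-1 and 0.21 with ETX as well (adjusted p = 9.63e-06 and 0.00656). The largest rise of these targets in shCPT-2 was that of TAGLN, by 1.06 ± 0.11 (limma adjusted p = 6.1e-06). TAGLN fell by 0.48 ± 0.11 in shCPT-1 (adjusted p = 0.00325) and was at 0.30 with ETX, overlapping scramble (0.0422). KLF11, a TGF-beta-inducible zinc finger factor, rose by 0.89 ± 0.10 with ETX, and TGFBI, a TGF-beta-induced matrix protein, fell by 0.44 ± 0.04 (limma adjusted p = 6.76e-05 and 1.97e-05). In shCPT-1 TGFBI was at 0.15 and KLF11 at -0.29 (limma adjusted p = 0.0148 and 0.0427). The first call ended without shCPT-1 2 (adjusted p = 0.055), and the KLF11 call without scramble 2, scramble 3, ETX 1, ETX 2, shCPT-1 2, shCPT-1 3 or shCPT-2 3 (up to 0.145). KLF10, a relative of KLF11, rose by 0.55 with ETX and 0.43 in shCPT-1 (limma adjusted p = 0.000173 and 0.000615). The cell cycle inhibitor CDKN1A rose by 0.36 with ETX and 0.30 in shCPT-1 (limma adjusted p = 0.000186 and 5e-04). In shCPT-2 KLF10 was at -0.01 and CDKN1A at -0.08 (limma adjusted p = 0.948 and 0.211).

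Of 5 BMP target genes, 1 rose and 3 fell with ETX (all tested genes: 21.9% and 19.4%). In shCPT-1 the 3 that passed rose (23.1% and 18.0%), and in shCPT-2 the 2 that passed rose (25.6% and 20.5%). With so few genes these counts do not show a shared response of BMP targets. ID1, an inhibitor of basic helix-loop-helix factors, read 8.44, 8.47 and 8.29 with ETX, 9.94, 9.81 and 9.86 in shCPT-1 and 8.83, 8.68 and 8.87 in shCPT-2, against 8.70, 8.68 and 8.86 in scramble. It rose by 1.12 ± 0.07 (SE) in shCPT-1 (limma adjusted p = 1.78e-07), fell by 0.35 ± 0.07 with ETX (adjusted p = 0.00234) and was at 0.05 ± 0.07 in shCPT-2 (adjusted p = 0.602). ID3, of the same family, read 7.72, 7.69 and 7.86 with ETX, 9.12, 8.99 and 9.10 in shCPT-1 and 8.97, 8.75 and 8.86 in shCPT-2, against 8.03, 8.13 and 8.30 in scramble. It rose by 0.91 ± 0.08 in shCPT-1 and 0.70 ± 0.08 in shCPT-2 and fell by 0.40 ± 0.08 with ETX (limma adjusted p = 2.13e-06, 1.3e-05 and 0.00175). ID3 was thus high where BMP2 was low and low where BMP2 was high, but the BMP targets did not share this. ID1 was not called in shCPT-2, where BMP2 was low as in shCPT-1, and HEY1 rose with ETX, where BMP2 was highest. A link between BMP2 and these targets was not tested. HEY1, a Notch and BMP target, rose by 0.43 with ETX and 0.28 in shCPT-1 (limma adjusted p = 0.000999 and 0.0114). Its shCPT-2 change of 0.24 (limma adjusted p = 0.02) ended as a call without scramble 2, scramble 3 or shCPT-2 1 (adjusted p up to 0.0768).

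**Figure D4:**
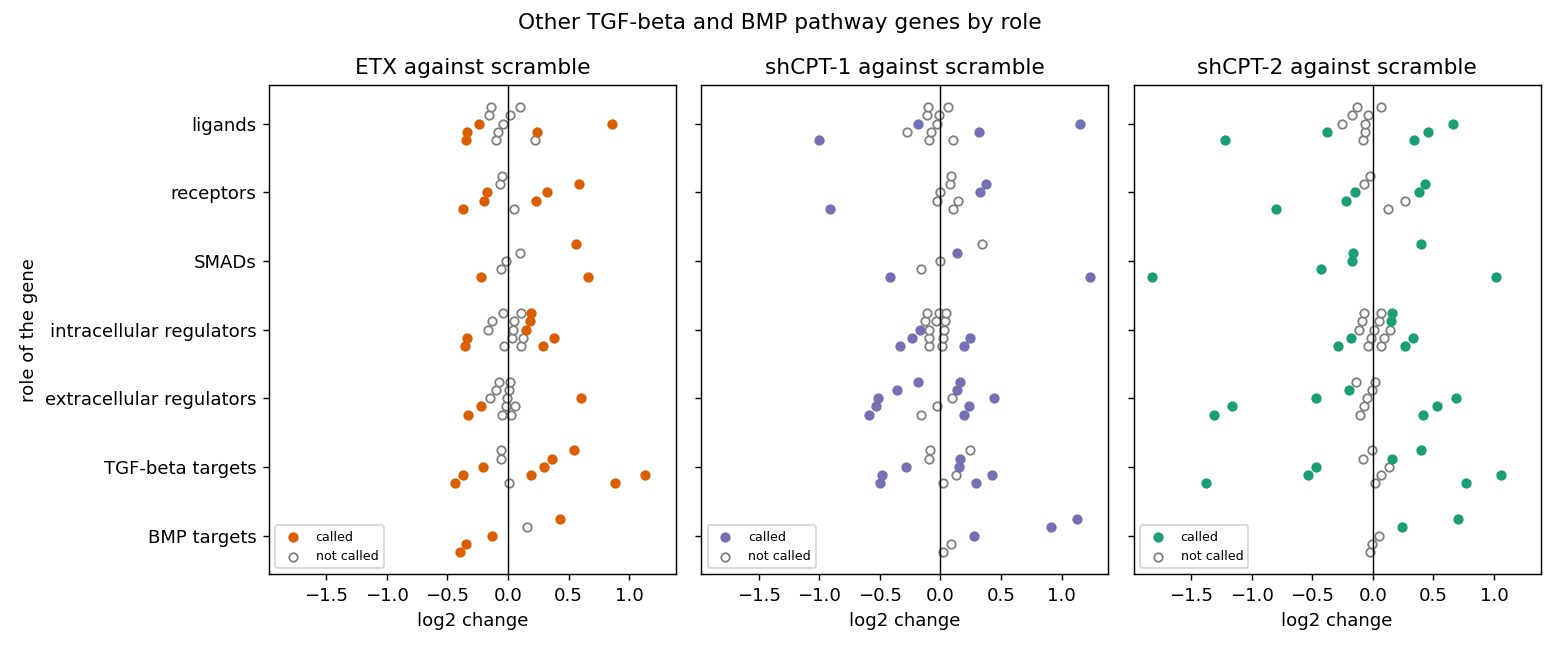
Log2 change against scramble (horizontal axes) of the 75 other pathway genes with a tested value, by role (vertical axis), for ETX, shCPT-1 and shCPT-2. Filled points are called (limma adjusted p under 0.05), open points are not, and vertical offsets within a role only separate points. Called genes lie on both sides of 0 in most roles, and SMAD6 in shCPT-2 (-1.82) lies furthest from it.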

How the data were processed

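Total RNA of MDA231 cells, labelled with biotin, was measured on 12 single-colour arrays, per the labels. The authors deposited an intensity for each probe set, on a linear scale (6.68 to 28791), from RMA per the submitters' processing notes. The sources used here give neither its version nor a genome build. Log2 intensities were used. Of 54675 probe sets 62 were controls, 41091 had 1 gene symbol by GEO's platform annotation, 1801 several and 11721 none. Probe sets above the median of their array on 3 or more arrays were kept, and the kept one with the highest mean stood for a gene, which gave 12886 genes. For arrays, the number of arrays and the signal over background limit the precision.

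Groups were compared with limma 3.58.1 in R 4.3.3 on all 12 arrays without covariates (residual degrees of freedom 8, prior 4.117), two-sided, with Benjamini-Hochberg adjustment over all 12886 genes within a comparison. An exact test of 3 against 3 cannot go below p = 0.1 and was not used. The 10 genes, the 109 other pathway genes and the tests were chosen with earlier results of these data known. Of the other genes, 9 had no probe set with 1 symbol and 25 did not pass the filter. Named were all 10 genes, per comparison and role up to 3 called genes with the smallest p whose arrays did not overlap scramble, LDLRAD4, CPT1A and CPT2, and the 5 genes most like PMEPA1 and BMP2. Other called changes of these pathway genes against scramble are given beside them. TAGLN was named besides, for the largest rise of a listed TGF-beta target in shCPT-2, and was not followed over the alternatives. Alternatives were other filters and probe set rules, other normalizations, a fit of only the groups compared, eBayes with trend and robust, a replicate block, an actin covariate and left-out arrays. The fit was tested on simulated data. Figures were drawn with matplotlib 3.10.9 in Python 3.11.15. Probe sets prone to cross-hybridisation are those whose names mark probes shared by several transcripts. Some named genes had no retained probe set outside this type, so leaving such probe sets out could not be tried for them. They are INHBA, GDF15, BMP4, ENG, SMAD6, LDLRAD4, WWP1, LTBP1, FN1, CDKN1A, KLF10, ID1 and ID3.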

Additional observations from a re-analysis of the deposited data

How the results depend on the processing

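Of the counts and of the log2 changes of the 10 genes, most moved little. Counts of pathway genes shrank without probe sets prone to cross-hybridisation, to 13 higher and 9 lower with ETX and 13 higher in shCPT-1. Only 56 of the pathway genes, in place of 75, were tested there. With the actin covariate 11 were lower with ETX. Leaving out 1 array at a time gave 15 to 21 higher and 11 to 17 lower with ETX, while 4021 to 5575 of all tested genes were called. With a replicate block 18 rose and 13 fell with ETX, 18 and 13 in shCPT-1, and 20 and 17 in shCPT-2. Shares of all genes under each of these settings are not given, so no drop is read as particular to the pathway. The deviations of same-numbered arrays from their group means correlated between -0.456 and 0.328 over 18 pairs, 8 of them over 0.1. Between ETX and scramble they were 0.09, 0.28 and 0.33, and between shCPT-1 and scramble -0.456, 0.308 and -0.441. The 3 deviations of a group are tied to their mean, so these values cannot decide whether the numbers pair the arrays.

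SMAD3 in shCPT-2 turned to 0.06 with the mean of its probe sets. Without probe sets prone to cross-hybridisation TRIM33 turned to 0.02 with ETX, 0.13 in shCPT-1 and 0.024 in shCPT-2 (0.001 there with the mean of its probe sets), SMAD2 to 0.01 and TGFBRAP1 to -0.086 in shCPT-2, and LDLRAD4 with ETX turned to 0.014 without the array of each group that correlated least with its group (ETX 3, shCPT-1 1, shCPT-2 2 and scramble 3). The cause was not tested. Over 23 alternatives the log2 change of PMEPA1 ranged from -1.34 to -1.20 with ETX, -1.005 to -0.70 in shCPT-1 and -2.09 to -1.73 in shCPT-2, and that of BMP2 from 0.17 to 1.42, -1.80 to -0.80 and -2.09 to -0.81. For BMP2 the values 1.42, -0.80 and -0.81 come from its other probe set, and 0.17, -1.80 and -2.09 from leaving out arrays (scramble 3 alone in the knockdowns). Signal near or under the array medians limits INHBA, BMP2, SMAD7, SMAD6, SMAD9, GDF15 and LDLRAD4.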
